A study of Mus musculus with 7 samples.

Results

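The replication-dependent histone genes were examined in tumours of Ivl:BRAFV600E and Ivl:BRAFV600E-SOX2LSL mice. Members were the genes of the count table whose symbol begins with Hist1h, Hist2h, Hist3h or Hist4h, or with the newer histone symbols, and 70 of the 55423 features carried such a name. Of these, 62 had at least 5 reads in at least 1 tumour and were tested, among 24433 genes tested in all. The 70 members comprise 6 H1, 20 H2A, 19 H2B, 12 H3 and 13 H4 genes, with 56 in the Hist1 cluster on chromosome 13, 10 in Hist2 on chromosome 3, 3 in Hist3 on chromosome 11 and 1 in Hist4 on chromosome 6. The 8 members not tested were Hist1h2aa, Hist1h2al, Hist1h2ba, Hist2h2aa1, Hist2h2aa2, Hist2h2bb, Hist2h3b and Hist2h3c1, of which 6 had no read in any tumour and none exceeded 4 reads. The annotation gives Hist1h2aj, Hist1h2al and Hist3h2bb-ps as pseudogenes, and they are counted here under their types.

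Both genotypes were on a C57BL/6J background and carried Ivl-CreERT2, a tamoxifen-inducible Cre recombinase driven by the involucrin promoter, and the BRAF V600E allele. Recombination in the IVL+ population was induced with topical tamoxifen in mice 7 to 10 weeks old, per the labels, and squamous tumours of the skin were collected at clinical endpoint. Ivl:BRAFV600E-SOX2LSL mice also carried a Cre-dependent SOX2-IRES-eGFP cassette at Rosa26, and their tumours were collected earlier after induction, so genotype and time since induction cannot be told apart. In 2 of the Ivl:BRAFV600E mice a tdRFP reporter allele was present in addition. Total RNA depleted of ribosomal RNA was sequenced from 4 Ivl:BRAFV600E and 3 Ivl:BRAFV600E-SOX2LSL tumours, of which 3 per genotype, each from a separate mouse, were used here, and values below are given for tumours 1, 2 and 3 in the order of the table. Ivl:BRAFV600E tumour 3 and Ivl:BRAFV600E-SOX2LSL tumours 1 and 2 came from males, and the other tumours from females.

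Histones package DNA into nucleosomes, each an octamer of H2A, H2B, H3 and H4, and linker H1 binds the DNA between them. Replication-dependent histone genes supply new histones while DNA is copied, and their mRNAs accumulate in S phase and are degraded when replication stops. The typical gene of this kind lacks introns, and its mRNA ends in a conserved stem-loop in place of a poly(A) tail. Some annotated members differ from this, such as Hist1h2be, whose exons of 4446 bases in all are spread over chr13:23583670-23621124. SLBP binds this stem-loop, and the U7 snRNP, which holds LSM10 and LSM11, directs the cut that forms the end of the mRNA. Replacement variants such as H3.3 are made throughout the cell cycle from genes with ordinary polyadenylated transcripts. Depletion of ribosomal RNA, unlike poly(A) selection, keeps transcripts without a tail in the library.

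A stem-loop of the histone kind was found in the annotated transcripts of 46 of the 70 members (65.7%), against 52 of 21901 protein-coding genes in the annotation as a whole (0.237%). A loop was found for 12 of 13 H4 genes (92.3%), 9 of 12 H3 genes, 11 of 20 H2A genes and 10 of 19 H2B genes. The absence of a match says only that the annotated transcript does not hold it. The following sites were read from GENCODE M21 transcripts (GRCm38), with the stem and loop in capitals. They are from members named in the results below and from Hist1h4a, which is shown for its form only.
Hist1h1c: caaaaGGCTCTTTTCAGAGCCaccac
Hist1h3c: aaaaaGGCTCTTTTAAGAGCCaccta
Hist2h2ac: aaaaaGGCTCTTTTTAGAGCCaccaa
Hist1h4d: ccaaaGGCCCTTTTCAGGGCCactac
Hist1h4a: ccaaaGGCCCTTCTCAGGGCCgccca
Hist3h2ba: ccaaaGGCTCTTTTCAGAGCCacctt
Hist4h4: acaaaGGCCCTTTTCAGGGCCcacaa
The form of Hist1h1c was the most common, with 26 members among H1, H2A, H2B and H3 and no H4 gene. The form of Hist1h4d and Hist4h4 was found in 7 members, all of them H4. The form of Hist1h3c was found in 6 members of H1, H2B and H3, and those of Hist2h2ac and Hist1h4a in 1 member each. The transcript model ended within 20 bases after the loop in 3 of the 46 members and ran on for more than 100 bases in 23, so that the models differ in how much sequence past the loop was counted.

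Promoters of 62 members were matched in the RefSeq table (GRCm38.p6), and 3 motifs were searched on both strands in 300 bases, from 250 before to 50 after the start: TATAAA, the core promoter element bound by TBP, CCAAT, bound by the NF-Y complex, and ATTTGCAT, the octamer bound by POU2F1. TATAAA was found in 35 of 62 members (56.5%) and in 14.2% of all 27025 promoters. CCAAT was found in 53 members (85.5%) and in 37.9% of all promoters. It was present in every matched H1, H2A, H2B and H3 promoter and in 3 of 12 H4 promoters (25.0%). The octamer was found in 7 H2A and 6 H2B promoters and in no promoter of another type, together 21.0% of the members against 1.8% of all promoters. Some H2A and H2B genes stand head to head and share their upstream stretch. There 1 motif site can be counted for both genes, as with the octamer of Hist1h2ae and Hist1h2bg. Shown are the promoters of an abundant member of H1, H2B, H3 and H4 and that of Hist4h4, the lone member on chromosome 6, as the 250 bases before the start with motif matches on either strand in capitals, so that a match in the last 50 bases is counted but not shown.
Hist1h1c, chr13:23738557-23738806, plus strand: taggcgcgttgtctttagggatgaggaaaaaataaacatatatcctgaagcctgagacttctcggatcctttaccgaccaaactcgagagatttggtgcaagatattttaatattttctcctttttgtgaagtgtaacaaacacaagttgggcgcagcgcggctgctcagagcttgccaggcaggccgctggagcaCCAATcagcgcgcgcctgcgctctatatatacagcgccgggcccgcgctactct
Hist1h2bg, chr13:23571150-23571399, plus strand: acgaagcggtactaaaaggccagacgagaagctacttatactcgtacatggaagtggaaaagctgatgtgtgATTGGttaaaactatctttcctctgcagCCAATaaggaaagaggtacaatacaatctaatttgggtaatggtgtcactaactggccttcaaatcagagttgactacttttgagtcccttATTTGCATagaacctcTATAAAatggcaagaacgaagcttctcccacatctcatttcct
Hist1h3c, chr13:23745522-23745771, minus strand: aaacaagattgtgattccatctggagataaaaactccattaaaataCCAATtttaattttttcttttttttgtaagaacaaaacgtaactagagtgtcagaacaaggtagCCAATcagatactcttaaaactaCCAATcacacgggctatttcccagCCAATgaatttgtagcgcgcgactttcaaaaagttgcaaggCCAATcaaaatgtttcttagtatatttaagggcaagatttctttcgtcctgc
Hist1h4d, chr13:23581318-23581567, plus strand: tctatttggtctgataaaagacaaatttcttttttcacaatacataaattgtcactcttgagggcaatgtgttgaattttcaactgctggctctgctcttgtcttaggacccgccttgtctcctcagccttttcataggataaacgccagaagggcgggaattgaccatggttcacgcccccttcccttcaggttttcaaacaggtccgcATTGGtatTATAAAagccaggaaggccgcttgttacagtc
Hist4h4, chr6:136804432-136804681, minus strand: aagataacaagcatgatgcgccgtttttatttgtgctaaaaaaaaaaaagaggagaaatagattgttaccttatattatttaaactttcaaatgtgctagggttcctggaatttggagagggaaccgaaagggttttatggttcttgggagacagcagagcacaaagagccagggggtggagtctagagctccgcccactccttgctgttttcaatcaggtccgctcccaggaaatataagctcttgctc
The window of Hist1h2bg held all 3 motifs. The window of Hist4h4 held none of them.

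The count table held between 23565432 and 31152826 counts on genes per tumour. Sox2, the gene carried by the added allele, measured 0.716, 0.508 and 0.237 CPM (read counts scaled to a common library size, after TMM, which corrects for differences in library composition) in Ivl:BRAFV600E tumours and 182, 155 and 157.7 CPM in Ivl:BRAFV600E-SOX2LSL tumours, a log2 fold change of 8.35 ± 0.34 (SE; edgeR's quasi-likelihood test, Benjamini-Hochberg adjusted p = 0.000807). EGFP had 0 reads in each Ivl:BRAFV600E tumour and between 3132 and 4957 reads in the others. The 8 keratinocyte markers were present in all tumours, with Krt5 at 2371 to 3899 CPM and Trp63 at 260.5 to 320.8 CPM. Their summed level was 80260 to 118300 CPM in Ivl:BRAFV600E and 11680 to 43100 CPM in Ivl:BRAFV600E-SOX2LSL tumours. Of the 8, edgeR and limma voom called 0 and DESeq2 called 4, and 4 had an unadjusted p below 0.05 with edgeR, of which Krt1 (log2 fold change -2.24), Krt10 (-3.06) and Lor (-2.49), markers of differentiated layers, were lower and Dsg3 (0.69) was higher. The summed level of 12 skeletal muscle markers was 1.94 to 4.32 CPM in Ivl:BRAFV600E and 199.2 to 929 CPM in Ivl:BRAFV600E-SOX2LSL tumours, with Tnnc2 at or near 0 in every tumour and 9 of 11 tested markers called higher by edgeR and 0 by limma voom. Fibroblast markers summed to 726 to 5027 and 3890 to 8176 CPM, and 9 immune markers to 224 to 741 and 505 to 1151 CPM. S100a8 held much of the immune sum, such as 635 CPM in Ivl:BRAFV600E tumour 3. Of the 9 immune markers, 8 had a log2 fold change above 0 and 4 were higher without overlap. edgeR called 1 of them (Ptprc, 1.30, adjusted p = 0.0483), DESeq2 4 and limma voom 0. Of 6 fibroblast markers, edgeR called 0 and DESeq2 1. Over all genes tested, edgeR called 3.9%, and 25.7% had an unadjusted p below 0.05. The part of these markers in the histone results was not tested, and in bulk RNA fewer cells of a type and less RNA per cell cannot be told apart.

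The main comparison asked whether histone mRNA differs between tumours of the IVL+ population with and without the SOX2 allele. None of the 62 tested members was called at an adjusted p below 0.05 (edgeR's quasi-likelihood test), while 3.9% of all genes tested were called, 2.39% higher and 1.51% lower. The lowest adjusted p among the members was 0.113. DESeq2 and limma voom also called 0 members, but the share of all genes that they called is not given here. limma voom also called 0 of 11 tested skeletal muscle markers, whose median log2 fold change was 7.07, so its 0 says little. At an unadjusted p below 0.05, edgeR found 5 of 62 members, 3 higher and 2 lower, against 25.7% of all genes. This count ran from 1 to 9 with 1 tumour left out and was 8 with sex as a covariate. The CPM of the groups did not overlap for 6 members, 4 higher and 2 lower in Ivl:BRAFV600E-SOX2LSL, against 34.2% of all genes (18.2% higher and 16% lower). Both shares were below those over all genes.

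The log2 fold changes of the members ranged from -1.65 for Hist3h2ba to 1.19 for Hist1h4m, with a median of 0.13 against 0.04 over all genes tested. The value was above 0 for 49 of 62 members with TMM scaling and for 35 with upper-quartile scaling, which moves every log2 fold change by about -0.10, against 52.8% and 46.7% of all genes. Without Ivl:BRAFV600E tumour 3 it was above 0 for 33 of 62 members against 53.3% of all genes, and the median was 0.02 against 0.06 over all genes. Without Ivl:BRAFV600E tumour 2 it was above 0 for 52 of 62 members against 53.4% of all genes. With sex as a covariate it was above 0 for 50 of 62 against 52.8%. The 95% interval of the log2 fold change lay within 1 unit on either side of 0 for 46 of 62 members, against 32.4% of all genes. Among the 42 members with a mean above 5 CPM, the interval lay within these bounds for 39. Differences of more than 2-fold lay outside the interval for these 39.

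**Figure D1:**
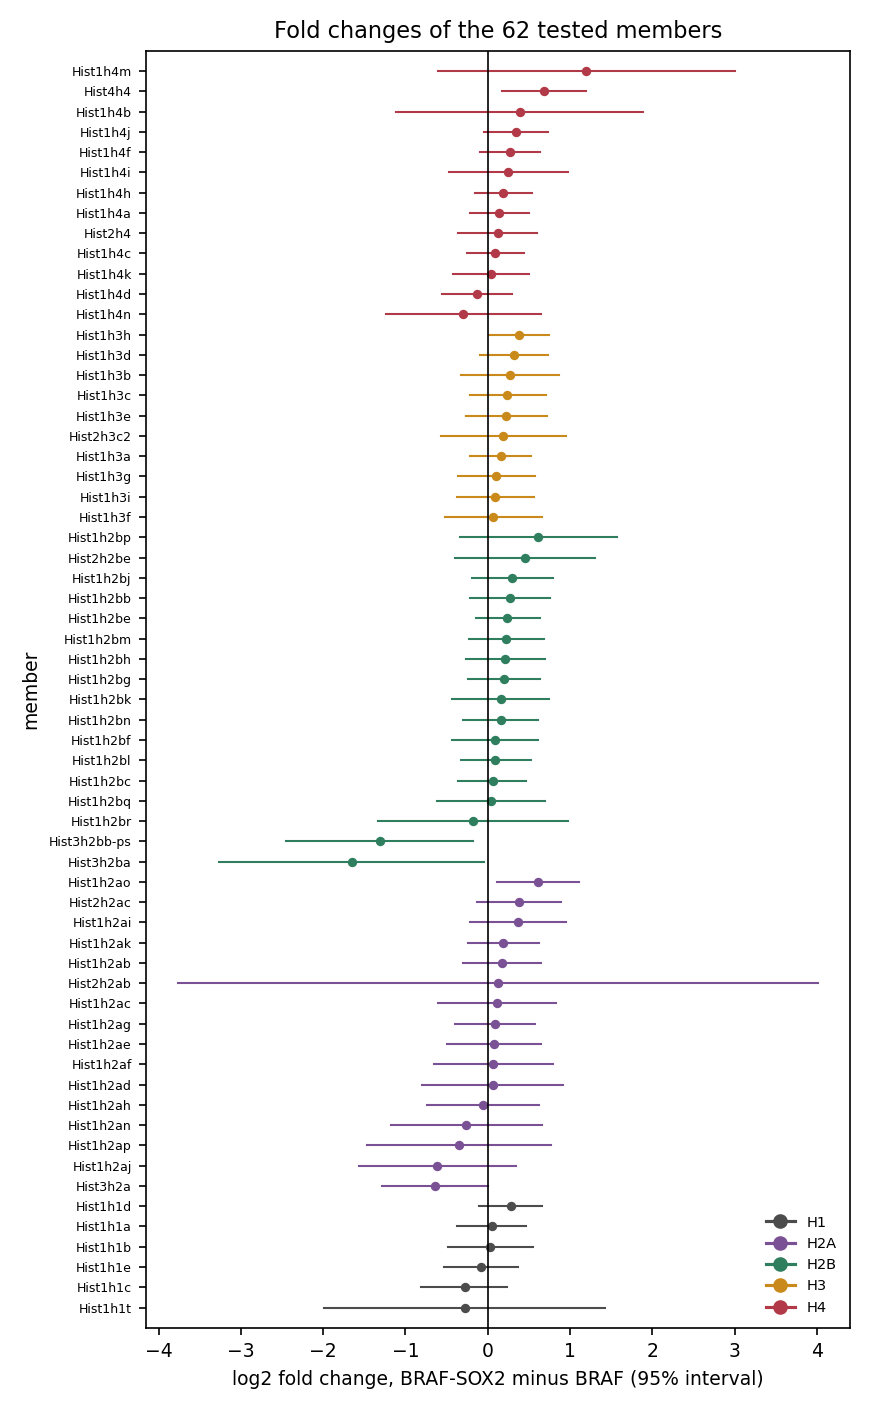
Log2 fold change of each of the 62 tested members, Ivl:BRAFV600E-SOX2LSL minus Ivl:BRAFV600E, with its 95% interval from edgeR, ordered within each histone type and coloured by type. Most points lie within 1 unit of 0, and the widest intervals belong to members with few reads such as Hist2h2ab, and to Hist1h4m.

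Summed over all 70 members, histone mRNA reached 2073, 2447 and 1564 CPM in Ivl:BRAFV600E tumours and 1989, 2248 and 2211 CPM in Ivl:BRAFV600E-SOX2LSL tumours. The means were 2028 ± 443.5 and 2149 ± 140.1 CPM (SD, n = 3 each), and the groups overlapped. The highest and the lowest sums both belonged to Ivl:BRAFV600E tumours, and the SOX2-expressing tumours lay between them. Without TMM scaling, the members took 0.195%, 0.202% and 0.140% of all counts on genes in Ivl:BRAFV600E and 0.250%, 0.241% and 0.237% in Ivl:BRAFV600E-SOX2LSL tumours, and on this scale the groups did not overlap. Leaving out TMM raises every log2 fold change by 0.35, the members' by as much as that of any other gene. Relative to other genes, the log2 ratio of the mean sums was 0.08. The part of the difference in keratinocyte markers, mainly Krt1, Krt10 and Krt14, in the scaling was not tested.

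By type, H1 summed to 684.8 ± 159.9 CPM in Ivl:BRAFV600E and 647.2 ± 78.9 CPM in Ivl:BRAFV600E-SOX2LSL tumours (SD, n = 3 each). H2A summed to 94.1 ± 19.6 and 105.6 ± 7.99 CPM, and H2B to 276.1 ± 63.1 and 309.7 ± 3.71 CPM. H3 summed to 429.9 ± 107.2 and 496.9 ± 9.21 CPM. H4 summed to 543.1 ± 96.2 and 590.1 ± 51.0 CPM. For each of the 5 types the groups overlapped, and the log2 ratios of the means ran from -0.08 for H1 to 0.21 for H3. That of H1 turned to 0.27 without TMM.

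**Figure D2:**
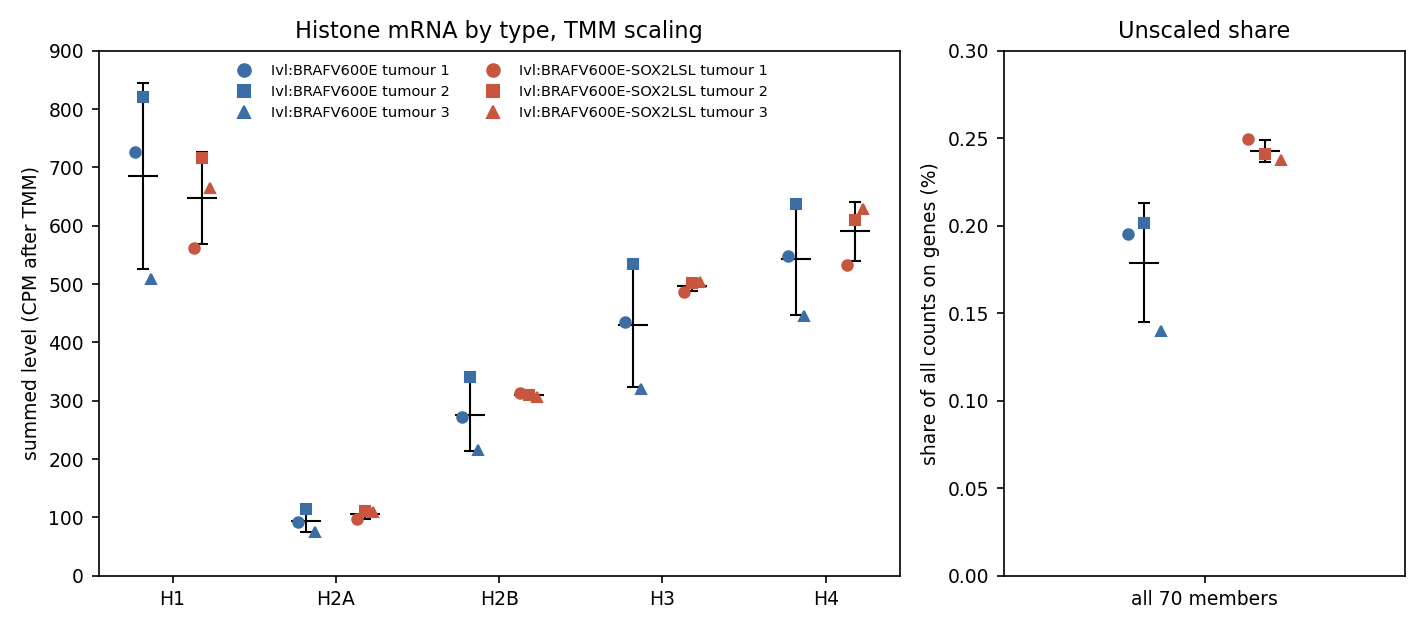
Left, summed CPM after TMM of the members of each histone type in each tumour; right, the share of all counts on genes held by the 70 members, in percent and without TMM. Points are tumours, and bars give the mean and SD of 3 tumours. With TMM the groups overlap for every type and Ivl:BRAFV600E tumour 3 is the lowest, while the unscaled shares are 0.140% to 0.202% and 0.237% to 0.250%.

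The makeup of the histone reads does not depend on scaling between libraries. H1 genes held 35.0%, 33.5% and 32.5% of all member reads in Ivl:BRAFV600E tumours and 28.2%, 31.9% and 30.0% in Ivl:BRAFV600E-SOX2LSL tumours. H3 genes held 21.0%, 21.8% and 20.5% against 24.4%, 22.3% and 22.8%. The groups did not overlap for either type, with H1 lower and H3 higher in the SOX2-expressing tumours. H2A genes held 4.47% to 4.81% and 4.84% to 4.97%, without overlap, while H2B and H4 overlapped. Since the shares add up to the whole, a lower share of one type raises the others, and no test was made of these sums.

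The 5 highest members held 37.5% of all member CPM and the 8 highest held at least 50% of it. Hist1h1c, which encodes the linker histone H1.2, was the highest by CPM, with 288.8, 338.9 and 190.4 CPM in Ivl:BRAFV600E and 199.7, 249.9 and 223.1 CPM in Ivl:BRAFV600E-SOX2LSL tumours. Ivl:BRAFV600E tumours 1 and 2 were higher than every SOX2-expressing tumour and tumour 3 was lower than all of them. The log2 fold change was -0.28 (95% interval -0.81 to 0.24; edgeR, adjusted p = 0.456). Hist1h1e (H1.4) measured 203.3, 216.6 and 143.4 against 151.3, 191.4 and 189.5 CPM, with a log2 fold change of -0.08 (-0.53 to 0.37). Hist1h1b (H1.5) measured 103.3, 115.8 and 70.8 against 78.4, 110.4 and 107.6 CPM, at 0.03 (-0.48 to 0.55). Hist1h1d (H1.3) measured 87.2, 94.6 and 67.7 against 90.3, 112.8 and 99.0 CPM, at 0.28 (-0.11 to 0.66). The groups overlapped for each of the 4. Hist1h1t, the testis form of H1, had at most 0.307 CPM.

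Among the H3 genes, Hist1h3c measured 86.7, 116.7 and 67.6 CPM in Ivl:BRAFV600E and 107.8, 104.3 and 108.4 CPM in Ivl:BRAFV600E-SOX2LSL tumours (log2 fold change 0.24, interval -0.22 to 0.71). Hist1h3e was close to it, at 92.1, 115.7 and 64.1 against 109.5, 104.6 and 103.6 CPM (0.22, -0.27 to 0.72). In both genes the 3 SOX2-expressing tumours were close to each other, and the Ivl:BRAFV600E tumours lay on both sides of them. Hist1h3f measured 56.9, 68.2 and 32.9 against 57.8, 56.1 and 51.9 CPM (0.07, -0.52 to 0.66). Hist1h3h measured 44.1, 57.8 and 43.2 against 56.6, 67.9 and 65.1 CPM. Its log2 fold change was 0.38 (0.02 to 0.75), with an unadjusted p of 0.0418 and an adjusted p of 0.177 (edgeR), and 1 pair of tumours overlapped. Only 8.0% of the 100-base windows of Hist1h3h occur in no other gene. All 10 tested H3 genes had a log2 fold change above 0, from 0.07 to 0.38, and the intervals of all 10 lay within 1 unit of 0. With upper-quartile scaling Hist1h3f turned to -0.03. The shift of about -0.10 with this scaling also takes Hist1h3i (0.09) and Hist1h3g (0.10) to about 0. With 1 tumour left out, 4 of the 10 fell below 0, with lowest values of -0.18 for Hist1h3f, -0.09 for Hist1h3i, -0.07 for Hist1h3g and -0.03 for Hist2h3c2.

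Among the H4 genes, Hist1h4d had the highest level in CPM, with 159.6, 203.3 and 126.2 in Ivl:BRAFV600E and 145.2, 145.0 and 156.3 in Ivl:BRAFV600E-SOX2LSL tumours (log2 fold change -0.13, interval -0.56 to 0.30). Every window of this gene is unique to it. Hist1h4h measured 74.3, 85.0 and 62.1 against 78.3, 83.4 and 91.6 CPM (0.19, -0.16 to 0.54), and was the highest of all members per length, at 168.3 CPM per kb. Hist2h4, on chromosome 3, measured 62.8, 69.5 and 51.4 against 49.1, 73.9 and 76.9 CPM (0.12, -0.36 to 0.60). Hist1h4f measured 41.8, 49.2 and 36.0 against 46.5, 50.9 and 56.2 CPM (0.27, -0.09 to 0.63). The groups overlapped for all 4.

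Hist4h4 (ENSMUSG00000096010 in the table's gene set; minus strand, chr6:136801553-136804415, GRCm38) had the lowest adjusted p of the members. It measured 29.9, 25.9 and 26.2 CPM in Ivl:BRAFV600E and 30.2, 49.4 and 52.1 CPM in Ivl:BRAFV600E-SOX2LSL tumours. Tumours 2 and 3 of the second group were high, while its tumour 1 was just above the highest Ivl:BRAFV600E tumour, so that the groups did not overlap. The log2 fold change was 0.68 ± 0.22 (SE; interval 0.17 to 1.19; edgeR, adjusted p = 0.113). Without Ivl:BRAFV600E-SOX2LSL tumour 1 it was 0.89 with an adjusted p of 0.0114, the only call of a member in any setting tried. Hist1h4j also did not overlap between the groups (0.34, interval -0.04 to 0.73; adjusted p = 0.239).

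**Figure D3:**
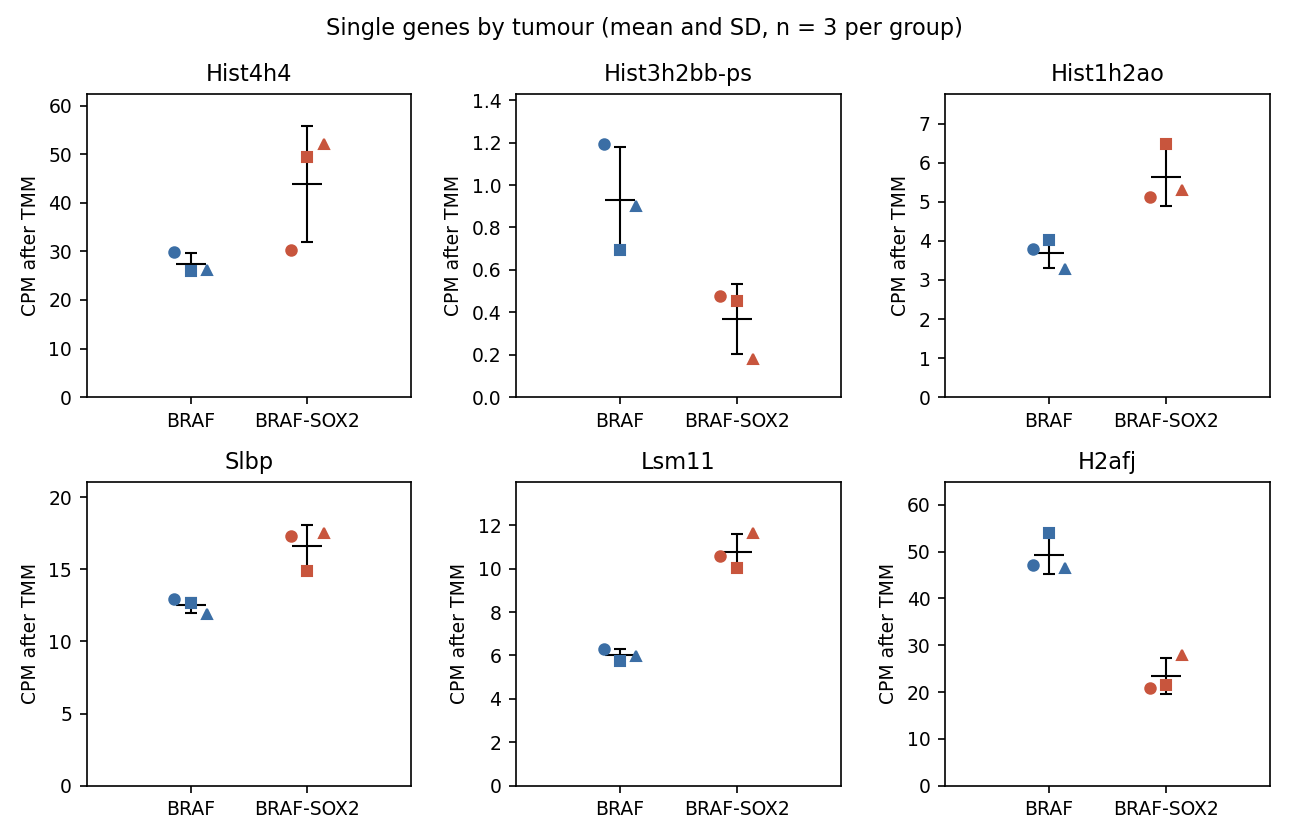
CPM after TMM of 3 members (upper row) and of 3 other genes of histone biology (lower row) in each tumour. Circles, squares and triangles are tumours 1, 2 and 3 of each genotype, and bars give the mean and SD (n = 3). The groups do not overlap in any panel, and only Lsm11 and H2afj had an adjusted p below 0.05 (edgeR). The 3 members shown are among the 6 of 62 without overlap, against 34.2% of all genes, so the panels are not typical of the members.

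None of the 4 most abundant H2B genes was called by edgeR. Hist1h2bc measured 49.1, 65.6 and 45.1 CPM in Ivl:BRAFV600E and 61.5, 55.8 and 48.8 CPM in Ivl:BRAFV600E-SOX2LSL tumours (log2 fold change 0.06, interval -0.36 to 0.47). Hist1h2bn measured 28.3, 37.6 and 23.7 against 29.6, 33.8 and 36.4 CPM (0.16, -0.30 to 0.61). Hist1h2bg, whose promoter is printed above, measured 25.6, 33.5 and 20.6 against 30.3, 30.5 and 30.9 CPM (0.20, -0.24 to 0.64), and Hist1h2bj 24.6, 30.2 and 17.1 against 30.8, 28.7 and 29.0 CPM (0.30, -0.19 to 0.79). The SOX2-expressing tumours fell between the extremes of the other group, or within 1 CPM of them, in each of these 4 genes. Lower in the list, Hist1h2bp had 12, 13 and 9 reads against 22, 19 and 27, with a log2 fold change of 0.61 (-0.34 to 1.57), and Hist2h2be 0.45 (-0.40 to 1.30).

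H2A genes were counted at the lowest levels. Hist1h2ak led with 33.3, 38.3 and 25.4 CPM against 32.7, 36.1 and 41.5 CPM (log2 fold change 0.19, interval -0.24 to 0.62). Hist2h2ac followed with 11.3, 13.9 and 9.5 against 12.0, 15.9 and 17.4 CPM (0.38, -0.13 to 0.89), then Hist1h2ab (0.17, -0.30 to 0.65) and Hist1h2af (0.07, -0.65 to 0.79). The groups overlapped for these genes. Hist1h2ao measured 3.79, 4.02 and 3.28 against 5.12, 6.48 and 5.31 CPM, without overlap. Its log2 fold change was 0.61 (0.11 to 1.11), with an unadjusted p of 0.0237 and an adjusted p of 0.136 (edgeR). Hist1h2ap and Hist1h2aj, the latter annotated as an unprocessed pseudogene, have about as little distinct sequence and had log2 fold changes of -0.35 (-1.47 to 0.77) and -0.62 (-1.57 to 0.34). Since 7.3% of the windows of Hist1h2ao are found in no other gene, 7.8% of those of Hist1h2ap and 8.3% of those of Hist1h2aj, how the reads of these copies were divided among them is uncertain.

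The 3 members of the Hist3 cluster on chromosome 11 had the 3 lowest log2 fold changes of all tested members, at few reads. Hist3h2ba, an H2B gene, had 22, 16 and 4 reads in Ivl:BRAFV600E and 10, 3 and 4 in Ivl:BRAFV600E-SOX2LSL tumours, and its log2 fold change was -1.65 (interval -3.26 to -0.05; unadjusted p = 0.0452, adjusted p = 0.185 by edgeR). Hist3h2bb-ps, annotated as a processed pseudogene, had 35, 15 and 19 reads against 17, 14 and 5, or 1.19, 0.693 and 0.902 against 0.476, 0.453 and 0.181 CPM (-1.31, -2.45 to -0.18; unadjusted p = 0.0288, adjusted p = 0.148). Hist3h2a had 52, 43 and 40 reads against 50, 34 and 31, or 1.77, 1.99 and 1.90 against 1.40, 1.10 and 1.12 CPM (-0.64, -1.29 to 0.00; adjusted p = 0.197). Every SOX2-expressing tumour was below every Ivl:BRAFV600E tumour for Hist3h2a and Hist3h2bb-ps, and not for Hist3h2ba. None of the 3 passed the adjusted threshold. Hist3h2ba was named after its values were seen, since its mean lies below 10 reads.

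Ivl:BRAFV600E tumour 3 had the lowest CPM of the 6 tumours for 45 of the 62 tested members and for 38 of the 42 above 5 CPM, against 13.1% of all genes tested. It was also the lowest for each of the 5 type sums. Ivl:BRAFV600E tumour 2 was the highest for 28 of 62 members. The same tumour 3 was lowest for 20 of 30 genes of DNA replication and for 14 of 15 genes of mitosis, and its fibroblast markers (5027 CPM) and immune markers (740.8 CPM) were the highest of its group. The part of the latter in its histone level was not tested. Without this tumour the median log2 fold change of the members was 0.02, and without tumour 2 it was 0.29.

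**Figure D4:**
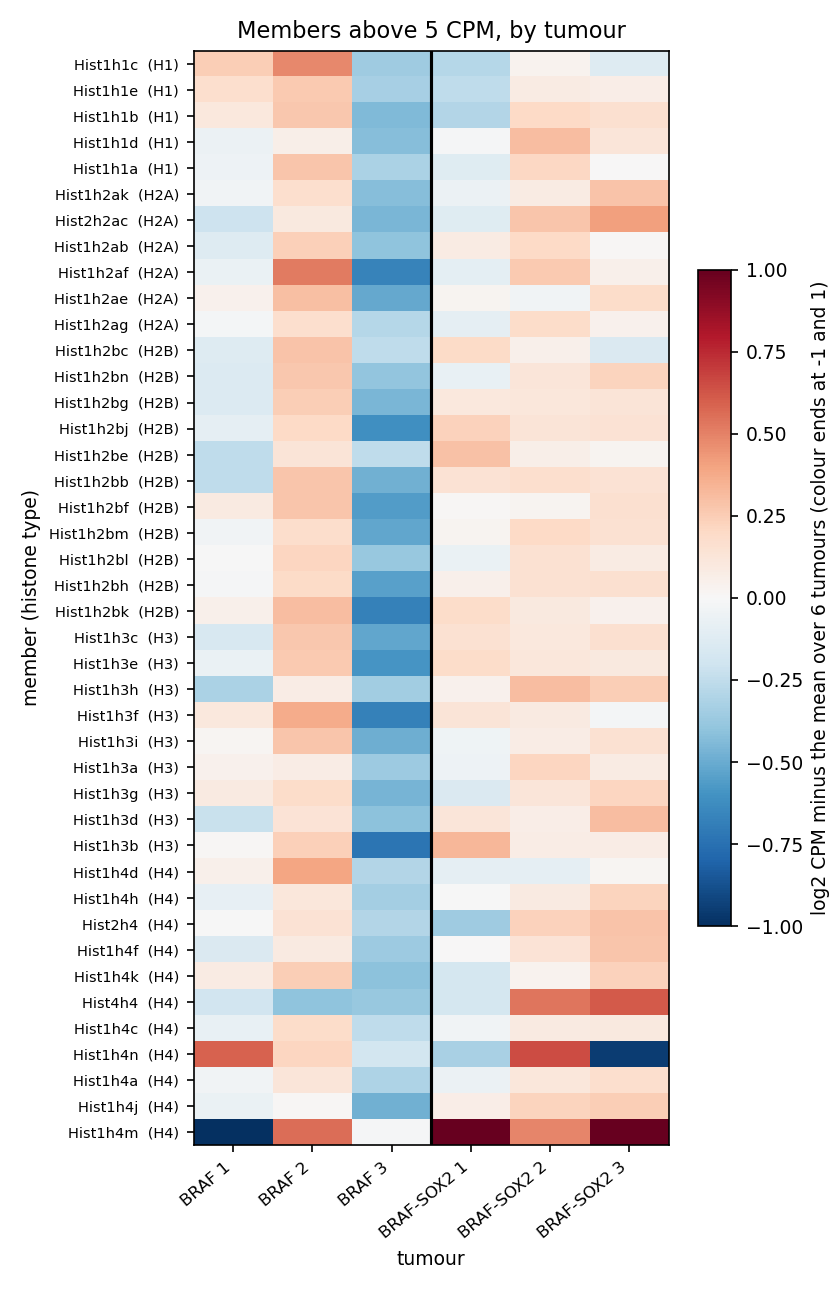
Log2 CPM of the 42 members with a mean above 5 CPM, minus the gene's mean over the 6 tumours, by tumour (columns; BRAF stands for Ivl:BRAFV600E and BRAF-SOX2 for Ivl:BRAFV600E-SOX2LSL). The column of Ivl:BRAFV600E tumour 3 is the lowest for 38 of 42 rows, and Hist1h4m and Hist1h4n differ in colour in Ivl:BRAFV600E tumour 1 and Ivl:BRAFV600E-SOX2LSL tumours 1 and 3.

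The near-identical H4 genes Hist1h4m (chr13:21811746-21812147, plus strand) and Hist1h4n (chr13:21831767-21832196, minus strand) divided their reads unevenly between tumours. Hist1h4m had 32, 351 and 230 reads in Ivl:BRAFV600E and 929, 478 and 633 in Ivl:BRAFV600E-SOX2LSL tumours, and Hist1h4n had 1179, 673 and 496 against 764, 1299 and 384. The share of Hist1h4m in their joint reads ran from 2.64% to 34.3% in the first group and from 26.9% to 62.2% in the second. Their sum was 41.3, 47.3 and 34.5 against 47.4, 57.5 and 36.7 CPM, so that the sum varied less than either gene. Of their 100-base windows, 11.9% and 19.3% are found in no other gene, and the share of reads that could not be placed was not measured. The largest positive log2 fold change of the members, 1.19 for Hist1h4m (interval -0.61 to 3.0; adjusted p = 0.363 by edgeR), belongs to this pair. Hist1h4n was at -0.30 (-1.24 to 0.65).

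How far the annotation lets a member be counted differed by type. Exons of all 20 H2A genes overlap another gene of the annotation, as do 1 of 6 H1, 2 of 19 H2B, 2 of 12 H3 and 1 of 13 H4 genes. Of the overlapping genes that are not members, 20 are no longer than 144 bases, and 19 of these had 0 reads in every tumour. The 5 members whose whole exon length is overlapped, Hist2h2aa1, Hist2h2aa2, Hist2h2bb, Hist2h3b and Hist2h3c1, had 0 reads in each of the 6 tumours, and none of their 100-base windows is found in that gene alone. Of the genes that cover them, Gm20632 had 14 to 63 reads, Gm20633 had 9 to 49, Gm20628, which covers Hist2h3b and Hist2h2bb, had 3 to 17, and Gm20634, the one that covers Hist2h3c1, had 0 in all 6 tumours. The median level was 43.7 CPM per kb among the 44 members without overlap and 5.66 CPM per kb among the 21 with a part overlapped. Among these 21 are 18 H2A genes, so overlap and type cannot be told apart here.

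**Figure D5:**
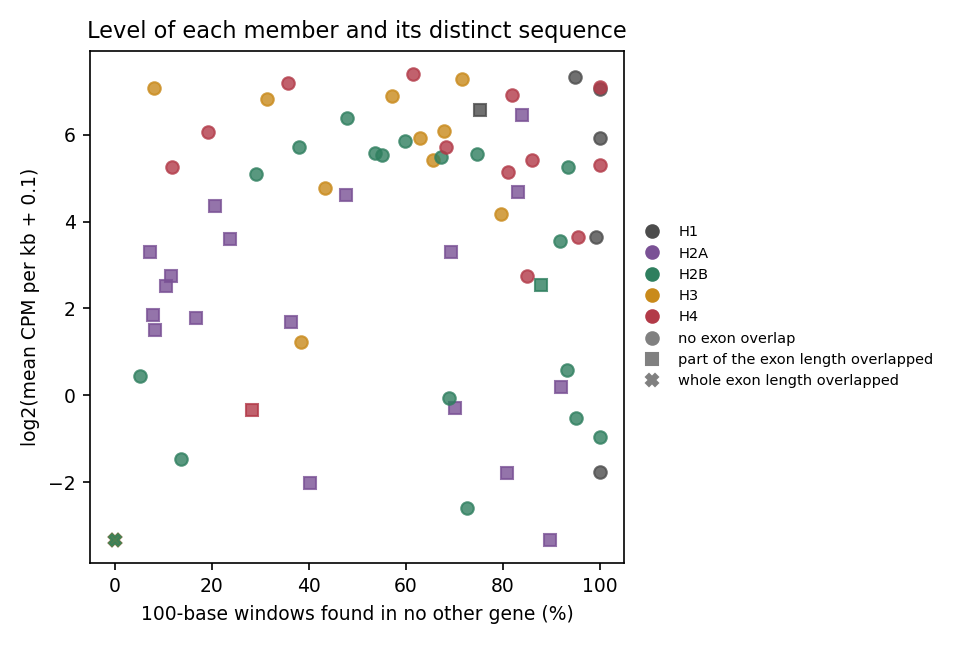
Mean level over 6 tumours, as log2(CPM per kb + 0.1), against the percentage of 100-base windows of each of the 70 members that occur in no other gene. Colours give the histone type and symbols the overlap of exons with other genes. The 5 crosses at 0% with the lowest level coincide, and squares, mostly H2A, lie lower than circles at the same percentage for many members.

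Of the H2A and H2B genes, 14 pairs stand head to head with 172 to 305 bases between them and share that stretch as their upstream region. In 7 pairs the H2A gene was lower per length than its H2B partner in all 6 tumours, and in 4 pairs, with Hist2h2ac, Hist1h2an, Hist1h2ao and Hist1h2ap, it was higher in all 6. Hist1h2ac measured 1.05 CPM per kb and Hist1h2bc 47.0, and Hist1h2ae measured 9.78 against 46.2 for Hist1h2bg. The pair of Hist1h2ak and Hist1h2bn was even, at 87.9 and 82.9 CPM per kb, and in the pair of Hist2h2ac and Hist2h2be the order was the opposite, at 25.6 and 0.414 CPM per kb. These values use the annotated exon length, which for some genes covers only the coding part and for others a long tail. Both partners were tested in 13 pairs, and their log2 fold changes had the same sign in 10.

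Genes that handle histone transcripts were examined next, from lists of the pathway. Over all genes tested, edgeR called 3.9%, and 25.7% had an unadjusted p below 0.05. Of 10 genes for transcription of the histone loci, 0 were called by edgeR and 1, Nfya, had an unadjusted p below 0.05, with a median log2 fold change of 0.21. Npat, the cyclin E/CDK2 target that activates histone loci, measured 34.3, 33.3 and 30.0 CPM in Ivl:BRAFV600E and 36.1, 34.6 and 28.2 CPM in Ivl:BRAFV600E-SOX2LSL tumours (0.02, interval -0.32 to 0.36). Casp8ap2, its partner at histone locus bodies, was at 0.20 (-0.10 to 0.50). E2f1, an activator of S-phase genes, was at 0.44 (-0.08 to 0.96), with no overlap between groups. Ccne1 was at 0.22 (-0.22 to 0.66) and Ccne2 at -0.04 (-0.73 to 0.66).

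Of 14 genes for processing of the histone 3′ end, 13 were tested and 1 was called by edgeR, 1 by DESeq2 and 0 by limma voom. At an unadjusted p below 0.05, edgeR found 3 of 13, 2 higher and 1 lower, against 25.7% of all genes. Lsm11, the U7 snRNP subunit that recruits the cleavage complex, measured 6.31, 5.73 and 5.98 CPM in Ivl:BRAFV600E and 10.6, 10.0 and 11.7 CPM in Ivl:BRAFV600E-SOX2LSL tumours. The 2 groups were well separated. Its log2 fold change was 0.84 ± 0.17 (SE; interval 0.45 to 1.23; edgeR, adjusted p = 0.0429). With 1 tumour left out, the adjusted p was 0.0376 without Ivl:BRAFV600E-SOX2LSL tumour 1 and between 0.0863 and 0.159 without any other tumour, while the log2 fold change stayed between 0.78 and 0.89. The adjusted p was 0.0506 with limma voom, 0.0569 with upper-quartile scaling and 0.0947 with sex as a covariate. Slbp, which binds the stem-loop printed above, measured 12.9, 12.7 and 11.9 against 17.3, 14.9 and 17.6 CPM, again without overlap. Its log2 fold change was 0.41 (0.06 to 0.75), with an unadjusted p of 0.026 and an adjusted p of 0.141 (edgeR). Lsm10, the partner of Lsm11, was at 0.27 (-0.31 to 0.85) with overlap. Ncbp1, named after its values were seen, was lower without overlap, at -0.46 (-0.87 to -0.06). Its unadjusted p was 0.031 and its adjusted p 0.153 (edgeR). The median of the list was -0.08, and Rnu7, the U7 RNA gene, had 0 reads in all tumours.

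Of 8 genes for decay of histone mRNA, 0 were called and 2 had an unadjusted p below 0.05, with a median of 0.07. Over all genes, 25.7% had such a p. Of 18 histone chaperones and supply factors, 0 were called and 1 had an unadjusted p below 0.05, with a median of -0.03. DESeq2 called no gene of these lists or of the transcription list.

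Of 11 replacement histone variants, 1 was called by edgeR, 3 by DESeq2 and 1 by limma voom, while edgeR called 3.9% of all genes. An unadjusted p below 0.05 was found by edgeR for 5 of the 11 (1 higher and 4 lower), against 25.7% of all genes. H2afj, which encodes H2A.J, measured 47.2, 54.1 and 46.6 CPM in Ivl:BRAFV600E and 20.8, 21.5 and 28.0 CPM in Ivl:BRAFV600E-SOX2LSL tumours. Every SOX2-expressing tumour was below every other tumour. Its log2 fold change was -1.07 ± 0.16 (SE; interval -1.44 to -0.70; edgeR, adjusted p = 0.0253). The adjusted p was 0.0162 and 0.0252 without Ivl:BRAFV600E-SOX2LSL tumours 1 and 3, and between 0.0626 and 0.118 without any of the other 4. H2afj (chr6:136808244-136810074, plus strand) lies 3828 bases from Hist4h4, whose log2 fold change of 0.68 has the opposite sign. H3f3a, a gene for H3.3, was lower in each SOX2-expressing tumour, with 296.4, 328.3 and 255.8 against 194, 218.9 and 193.7 CPM, but did not pass with edgeR (-0.54, -0.87 to -0.20; adjusted p = 0.078) and passed with DESeq2 (adjusted p = 0.0102). H3f3b, which encodes the same protein, was at 0.05 (-0.27 to 0.37). H2afz (H2A.Z) was at 0.34 (-0.03 to 0.72), and H1f0, the linker histone of differentiated cells, at -0.46 (-0.81 to -0.11; adjusted p = 0.118).

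Genes of DNA replication gave a reference for S phase. None of 30 was called by edgeR and 4 had an unadjusted p below 0.05, all higher, against 25.7% of all genes. DESeq2 called 3 of the 30 (Mcm7, Gins2 and Dnmt1, named after their values were seen). The groups did not overlap for 12 of 30, all higher, against 18.2% higher and 16% lower of all genes. The log2 fold change was above 0 for 26 of 30 with TMM and 22 of 30 with upper-quartile scaling, against 52.8% and 46.7% of all genes. The median was 0.21. Pcna, the sliding clamp of DNA polymerase, was at 0.15 (-0.17 to 0.47). Of 15 genes of mitosis, 0 were called by edgeR or DESeq2 and 1 had an unadjusted p below 0.05, with a median of 0.18. Mki67 was at -0.23 (-0.70 to 0.24) and Top2a at 0.18 (-0.19 to 0.56). Per read of the replication list, the members had 2.02, 2.78 and 1.97 reads in Ivl:BRAFV600E and 1.83, 2.20 and 2.20 reads in Ivl:BRAFV600E-SOX2LSL tumours. This ratio, which needs no scaling between libraries, overlapped between the groups. Per read of the mitosis list it was 1.75, 2.29 and 2.01 against 2.07, 2.04 and 2.12, also with overlap. Per read of the replacement variants it was 1.91, 2.03 and 1.67 against 2.20, 2.32 and 2.19, without overlap.

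Other RNAs without a poly(A) tail bear on how far the libraries kept such transcripts. Rn7sk, a small nuclear RNA, was present at 1535 to 2308 CPM, with a log2 fold change of 0.17 (-0.32 to 0.65). Gm26917, also on this list, was present at 89480 to 163900 CPM, with a log2 fold change of -0.25 (-1.24 to 0.73) and overlap between the groups. Whether its reads come from ribosomal RNA left after depletion was not tested, so its level does not show how far such transcripts were kept. Rmrp, Rpph1 and Terc had too few reads to be tested. Malat1, a nuclear RNA whose end is a triple helix, was called lower, with 4582, 6742 and 5164 CPM in Ivl:BRAFV600E and 2389, 2473 and 2389 CPM in Ivl:BRAFV600E-SOX2LSL tumours (-1.19, -1.69 to -0.68; edgeR, adjusted p = 0.036). With 1 tumour left out its adjusted p ran from 0.025 without Ivl:BRAFV600E-SOX2LSL tumour 1 to 0.118 without Ivl:BRAFV600E tumour 1, and it passed in 1 of the 6 cases.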

How the data were processed

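The authors depleted ribosomal RNA, sequenced tumour RNA in paired-end reads, trimmed the reads (FastQC 0.11.8, Trim Galore), aligned them to GRCm38 with HISAT2 2.1.0 and counted them per gene with featureCounts of Subread 1.6.3; they deposited raw counts without normalisation. Whether multimapping or overlapping reads and the strand were used is not stated. The table has 1 further column whose group is uncertain, which was not used, so 6 of the 7 tumours in the labels were compared, 3 against 3, in place of the 4 against 3 planned. Groups were read from the mouse names of the columns, which carry no replicate numbers.

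Genes with at least 5 reads in 1 tumour were kept, libraries scaled by TMM, and genotypes compared with edgeR 4.0.16 (quasi-likelihood test, R 4.3.3) with Benjamini-Hochberg adjustment over all genes at 0.05. CPM are after TMM, and intervals are at 95%. Genes were placed with GENCODE M21. Alternatives were DESeq2 1.42.0, limma 3.58.1 voom, other scalings, filters, sex as a covariate and each tumour left out. Scripts were tested on simulated data. Tables and figures used Python 3.11.15, pandas 2.3.3 and matplotlib 3.10.9. Members and lists were chosen with earlier results of these data known. Named are the 4 highest members of each type, the 5 highest and 5 lowest log2 fold changes among members with at least 10 reads on average, genes called in the pathway lists, and a fixed set of regulators.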

Additional observations from a re-analysis of the deposited data

How the results depend on the processing

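The number of members called was 0 in every setting other than the removal of single tumours, where it ran from 0 to 1. The median log2 fold change of the members was 0.12 with DESeq2, 0.04 with upper-quartile scaling and 0.25 with sex as a covariate, against 0.03, -0.06 and 0.04 over all genes, and from 0.02 to 0.29 with 1 tumour left out. It was 0.17 over the 38 tested members with at least 50% of windows in no other gene, and 0 of 43 members without exon overlap were called, both chosen after seeing the data. Of the pathway, variant, replication and mitosis genes, edgeR called 2, DESeq2 7, and upper-quartile scaling, limma voom and the sex covariate 1 each, and from 0 to 2 were called with 1 tumour left out. The cause was not tested. Without TMM the log2 ratio of the mean sums was 0.44 for all members, 0.27 for H1, 0.52 for H2A, 0.53 for H2B, 0.57 for H3 and 0.47 for H4, which follows from the shift of 0.35 in every gene. Upper-quartile scaling moves every gene by about -0.10, and with this common shift the sign changed for Hist1h1b (-0.06), Hist1h2af (-0.02), Hist1h2bc (-0.05), Hist1h3f (-0.03), Npat (-0.08) and H3f3b (-0.04), and the sex covariate for Hist1h1e (0.05) and Npat (-0.01). With 1 tumour left out, log2 fold changes spanned 0 for Hist1h1e (-0.24 to 0.03), Hist1h1b (-0.15 to 0.18), Hist1h2af (-0.17 to 0.41), Hist1h2bc (-0.05 to 0.23), Hist1h3f (-0.18 to 0.30), Hist1h4d (-0.29 to 0.06), Hist1h4n (-0.84 to 0.01), Npat (-0.05 to 0.12), Ccne2 (-0.23 to 0.24) and H3f3b (-0.03 to 0.11). The other 38 of 48 named genes kept their sign in the settings fitted gene by gene, which do not include the omission of TMM. Some of them came close to 0 with 1 tumour left out, such as Hist1h3e (0.03 to 0.44), Hist1h2bn (0.01 to 0.35) and Hist1h2ak (0.04 to 0.32). No paired analysis was possible because the columns carry no replicate numbers. With 3 tumours a group the number of tumours limits small differences, and depth limits members with few reads, such as Hist3h2ba.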
